A study of Homo sapiens with 12 samples.

Results

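This comparison set s18790 against s18789, a pair of siRNAs that both target SETD1A, across the transcripts of SH-SY5Y cells. SH-SY5Y is a single human tumour line, derived from a neuroblastoma and related to sympathetic neurons. The s18790 group held 4 arrays of cells transfected with s18790, the s18789 group 4 arrays of cells transfected with s18789, and the control group 4 arrays of cells given a control siRNA. Every group was harvested 96 h after lipid transfection in the same medium, so the transfection itself is shared by all of them. The comparison uses 8 of the 12 arrays of the series directly, and the control arrays add to the estimate of the spread and are given beside the results. The labels do not state whether each sample was its own culture, and the spread on which the p-values rest may therefore be technical.

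SETD1A methylates histone H3 at lysine 4, a mark found at active promoters. An siRNA acts through a guide strand that is loaded into an Argonaute protein and pairs with its target transcript. A guide can also lower other transcripts through short matches to its seed, and these differ from one siRNA to another. Transcripts that differ between siRNAs to the same gene are therefore looked at separately from those that both change. The sequences of the siRNAs were not analysed here.

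A probe counted as measured with a detection p under 0.01 on 4 or more arrays of the 12, which gave 15922 probes for 9833 named genes. Levels are background-corrected, quantile-normalised intensities on the log2 scale, and a difference of 1 is a 2-fold change. A probe is termed called where its adjusted p from limma over all measured probes was under 0.05, and a gene is represented by its brightest probe. The array s18790 replicate 2 stood apart from all others on the main axis of variation, at 83.9 against -23.8 to 26.8 for the other 11 arrays, and it correlated with its own group at 0.912 to 0.946. Control replicate 4 lay furthest from its group among the controls. The share of probes above background was 29.1% to 33.6% over the 12 arrays. Of the 9 markers of sympathetic neuroblastoma cells on the array, 8 were above background and TH, the enzyme that starts catecholamine synthesis, was not. Markers of Schwann cells, of which 3 of 5 were on the array, and of endothelial cells were above background on no array. EPCAM was the only one of 5 epithelial markers above it. Of 8 fibroblast markers 7 were above background on at least 1 array, as were 3 of 5 immune markers.

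SETD1A itself was measured by a single probe. Its level was 6.99, 7.46, 6.91 and 6.84 with s18790, against 7.34, 7.23, 7.10 and 7.31 with s18789 and 7.52, 7.65, 7.51 and 8.04 with the control siRNA. The siRNA groups overlapped, because s18790 replicate 2 lay above every s18789 array while the other 3 s18790 arrays lay below them. The mean with s18790 was 87.2% of that with s18789 (log2 difference -0.20 ± 0.15 SE, 95% interval -0.53 to 0.14, limma adjusted p = 0.468). The exact two-sided permutation test over 70 arrangements gave p = 0.229, where 0.0286 is the smallest it can give. A difference of up to 0.53 lower with s18790 lies within the interval, so equal levels are not shown. Without s18790 replicate 2 the difference was -0.33 (adjusted p = 0.150), and in bulk RNA a smaller number of cells with the transcript and less of it per cell cannot be told apart.

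Between the siRNAs, 667 of 15922 probes were called (4.19%), 372 higher with s18790 (2.34%) and 295 lower (1.85%). Counted by gene, 498 of 9833 were called (5.06%), 295 higher (3%) and 203 lower (2.06%), and the median over all measured genes was 0.02. The counts given below for gene lists stand beside these shares of 3% and 2.06%. More than 2-fold changes were seen for 56 of the called probes, 38 higher and 18 lower, and 82 called probes were unnamed here. The 4 and 4 values did not overlap for 2226 probes (14%), which include 654 of the called ones. The count was uneven across left-out arrays: it was 951 without s18790 replicate 2 and 1084 without s18790 replicate 3. It was 256 without s18790 replicate 1, and 324, 268, 210 and 206 without s18789 replicates 1, 2, 3 and 4. Without control replicates 1, 2 or 3 it was 442, 429 and 444. With arrays scaled to equal medians in place of quantile normalization, 102 probes were higher and 591 lower, and the median of all probes moved to -0.14 from 0.01.

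**Figure D1:**
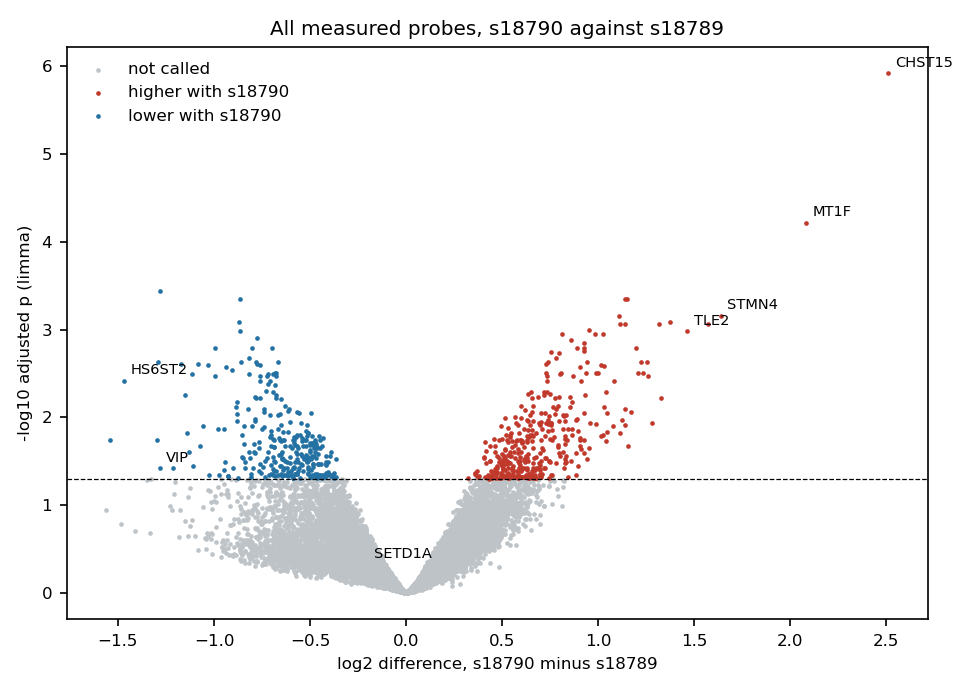
Each point is 1 of the 15922 measured probes, with the log2 difference of s18790 minus s18789 on the horizontal axis and -log10 of the limma adjusted p on the vertical axis. The dashed line marks adjusted p 0.05; CHST15 and MT1F stand furthest to the upper right, and SETD1A lies below the line at -0.20.

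The calls of 99 genes, the leading ones and the called members of the gene lists, were followed through 23 alternatives each, or 22 where a gene was not above background on all arrays. Of these, 36 were called in every alternative, 40 whichever single array was left out, and 93 without s18790 replicate 2, and the sign of 0 turned. The call was lost for 39 with median scaling, for 57 with only the 8 siRNA arrays fitted and for 49 with the replicate number as a block. An adjusted p given as "up to" beside a lost call is the highest with 1 array left out, and a gene said to be called in every alternative was called in each of these fits. Losses given beside a gene are those with 1 array left out unless another setting is named.

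**Figure D2:**
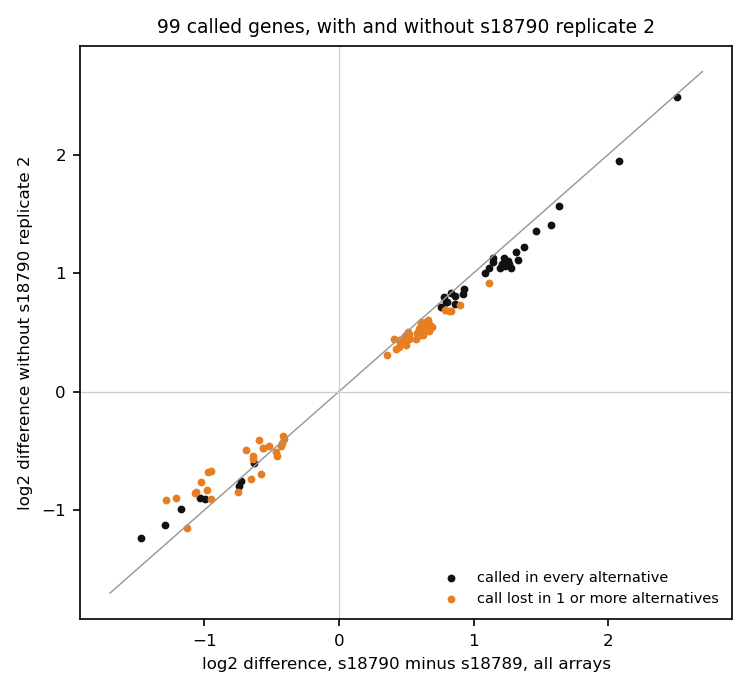
Each point is a called gene among the 99 followed, with its log2 difference of s18790 minus s18789 over all arrays on the horizontal axis and the difference without s18790 replicate 2 on the vertical axis. CHST15 is at 2.51 and 2.48 and VIP at -1.28 and -0.91, and no gene crosses 0.

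CHST15, which adds sulfate to chondroitin sulfate chains of the cell surface and matrix, had the largest difference. Its level was 8.81, 8.81, 8.41 and 8.89 with s18790, against 6.30, 6.19, 6.24 and 6.15 with s18789, and 7.54, 7.34, 7.39 and 7.76 with the control siRNA. All control arrays lay between the siRNA groups, and no groups overlapped. CHST15 was 5.70-fold higher with s18790 (log2 2.51 ± 0.13 SE, limma adjusted p = 1.20e-06) and was called in every alternative, with 2.46 as the smallest difference when an array was left out.

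HS6ST2, which sulfates heparan sulfate, the other main sulfated chain of the cell surface, had the largest fall among called genes whose siRNA groups did not overlap. It was at 7.04, 6.06, 7.21 and 6.71 with s18790, against 8.14, 8.10, 8.22 and 8.42 with s18789 and 8.44, 8.49, 8.26 and 7.86 with control. It was 2.77-fold lower (log2 -1.47 ± 0.22, adjusted p = 0.00380), a second probe was also called at -1.29, and without s18790 replicate 2, the lowest array, the difference was -1.24. Here the s18789 and control arrays overlapped, and every s18790 array lay below both. Of 19 measured genes that build or sulfate these chains, 2 were higher and 1 lower (median 0.11, against 0.02 over all genes, and -0.05 with median scaling). The remaining called member was CHST10, which makes the HNK-1 sulfate epitope of neural cells, at 0.50 ± 0.12 (adjusted p = 0.0362). Its call was lost with any s18789 array, control replicate 2 or 3, or s18790 replicate 1 or 4 left out, and its adjusted p reached 0.113. EXT2, a polymerase of heparan sulfate, had 0.45 (adjusted p = 0.0783).

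**Figure D3:**
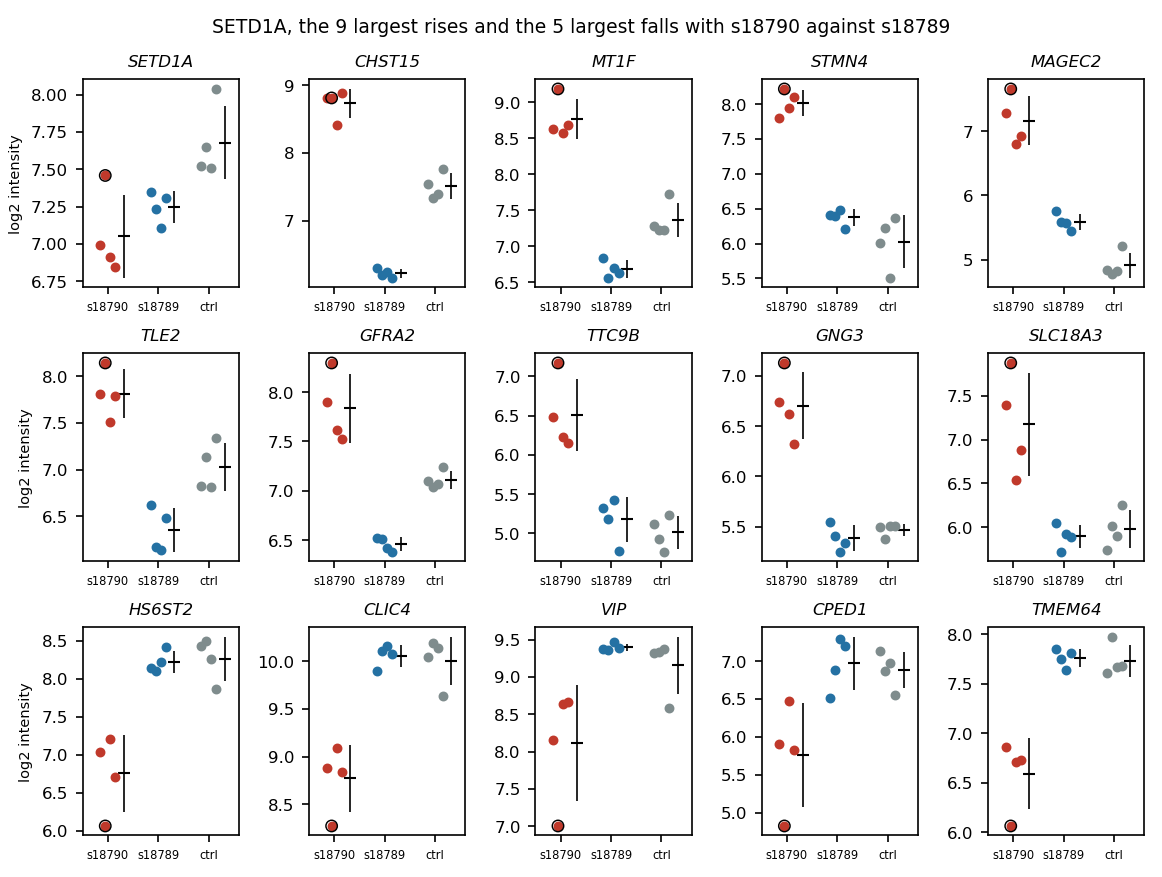
Log2 intensity of SETD1A, the 9 genes with the largest rises and the 5 with the largest falls on each of the 12 arrays, with s18790 left, s18789 in the middle and control right. Points are arrays, the dash and bar are the group mean and SD (n = 4), and a black ring marks s18790 replicate 2, which is the highest s18790 array for MT1F and SETD1A and the lowest for HS6ST2, CLIC4 and VIP.

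Metallothioneins are small cysteine-rich proteins that bind zinc and copper, and their genes respond to metals through short metal response elements near the start of transcription. In the list of 18 measured metallothionein and metal response genes, 5 were higher with s18790 and 0 lower (median 0.12, against 0.02 over all genes). The same counts were found without s18790 replicate 2, while with median scaling 3 were higher and the list's median was -0.05. The called members were 4 metallothioneins, MT1F, MT1X, MT2A and MT1E, and the zinc transporter SLC30A3.

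The promoters of MT1X and MT2A, members called in every alternative, are shown with letter matches to the core of the metal response element. No promoter sequence was available here for MT1F or MT1E. Whether the matches bear on the differences was not tested. Both are the 250 bases before the start of the gene, from RefSeq on GRCh38.p14, plus strand, 5′ to 3′, with capitals at each match to TGCACNC or TGCGCNC on either strand. MT1X lies at chr16:56682220-56682469 and MT2A at chr16:56608334-56608583.
MT1X: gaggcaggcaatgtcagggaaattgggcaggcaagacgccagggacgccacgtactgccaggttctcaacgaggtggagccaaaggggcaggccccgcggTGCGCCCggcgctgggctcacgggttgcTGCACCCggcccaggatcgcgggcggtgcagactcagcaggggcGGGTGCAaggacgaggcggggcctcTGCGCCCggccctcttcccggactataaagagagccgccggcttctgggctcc
MT2A: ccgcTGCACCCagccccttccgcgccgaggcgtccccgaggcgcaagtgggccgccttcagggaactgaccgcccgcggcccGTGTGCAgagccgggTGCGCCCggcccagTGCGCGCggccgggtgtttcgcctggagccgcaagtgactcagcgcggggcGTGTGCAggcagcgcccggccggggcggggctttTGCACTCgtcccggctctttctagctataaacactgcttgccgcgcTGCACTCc
MT1X held 4 matches, 3 on the given strand and 1 on the opposite one, and MT2A held 7, with 5 and 2. Of 27305 RefSeq promoters of the same length, 24.7% held at least 1 match and 1.56% held at least 3. A match is a match of letters only.

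MT1F was at 8.64, 9.19, 8.57 and 8.68 with s18790, against 6.84, 6.56, 6.70 and 6.63 with s18789 and 7.28, 7.23, 7.22 and 7.72 with control. It was 4.24-fold higher (log2 2.08 ± 0.16, adjusted p = 6.06e-05), with control between the siRNAs. MT1X was at 8.94, 9.32, 8.85 and 8.95 with s18790, against 8.19, 8.09, 8.02 and 8.06 with s18789 and 8.23, 8.20, 8.16 and 8.43 with control, and was 1.90-fold higher (adjusted p = 0.00162).
MT2A was at 8.38, 8.59, 8.29 and 8.41 with s18790, against 7.56, 7.59, 7.41 and 7.66 with s18789 and 7.59, 7.79, 7.65 and 7.52 with control, and was 1.81-fold higher (adjusted p = 0.00131). All 3 were called in every alternative, and s18790 replicate 2 was the highest array for each. Metallothioneins are near-identical copies of one another, so a probe may also read a relative of the gene it is named for.
MT1E was 0.69 ± 0.17 higher on the log2 scale (adjusted p = 0.0377), and its call was lost with any s18789 array, control replicate 2 or 3 or s18790 replicate 4 left out (adjusted p up to 0.111). SLC30A3, which loads zinc into synaptic vesicles, was 0.82 ± 0.18 higher (adjusted p = 0.0245), and its call was lost without s18789 replicates 2, 3 or 4 or s18790 replicate 1 (up to 0.0779).

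**Figure D4:**
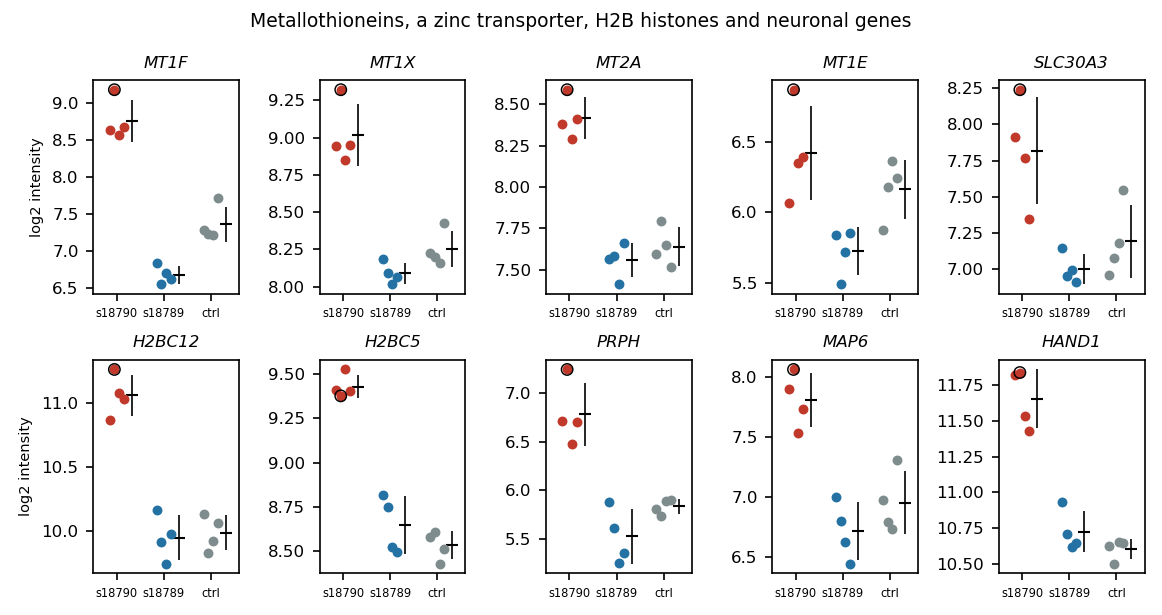
Log2 intensity of metallothioneins, the zinc transporter SLC30A3, 2 histone H2B genes and neuronal genes on each array, with s18790 left, s18789 in the middle and control right. Points are arrays, the dash and bar are the mean and SD (n = 4), and a black ring marks s18790 replicate 2. For MT1F, MT1X, MT2A, H2BC12, H2BC5 and HAND1 all s18790 values lie above all s18789 values, with control nearer to s18789.

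Genes of the neuronal cytoskeleton rose more often than they fell. Of 32 measured genes for microtubules and growth cones, 8 were higher and 1 lower with s18790, beside 3% and 2.06% of all genes. The list's median was 0.26, and 0.24 without s18790 replicate 2, with the same counts. With median scaling 5 were higher and 1 lower, with a median of 0.15.
STMN4, a neuronal stathmin that binds tubulin, was at 7.79, 8.22, 7.94 and 8.11 with s18790, against 6.41, 6.40, 6.49 and 6.21 with s18789 and 6.01, 6.22, 5.51 and 6.37 with control. It was 3.11-fold higher (log2 1.64 ± 0.17, adjusted p = 0.000695) and the siRNA groups did not overlap.
MAPRE3, which tracks growing microtubule ends, was at 7.59, 8.05, 7.38 and 7.41 with s18790, against 6.61, 6.49, 6.33 and 6.22 with s18789 and 6.53, 6.61, 6.43 and 6.71 with control, and was 2.29-fold higher (adjusted p = 0.00162). TACC2, a microtubule and centrosome protein, was at 6.45, 6.50, 6.29 and 6.18 with s18790 and above background on no s18789 or control array. It was at least 1.73-fold higher (adjusted p = 0.000452). TACC2 passed the detection filter only through the s18790 arrays, which fixed the direction of its call. PRPH, an intermediate filament of peripheral neurons, was at 6.71, 7.24, 6.48 and 6.70 with s18790, against 5.88, 5.62, 5.26 and 5.36 with s18789, where 1 of 4 arrays was above background, and was 2.39-fold higher (adjusted p = 0.00236).
STMN4, MAPRE3, TACC2 and PRPH were called in every alternative, as was MAP6, which stabilises microtubules, chosen after its values were seen, at 1.08 ± 0.16 (adjusted p = 0.00386). Another probe of MAP6 was not called, at 0.48 (adjusted p = 0.107).
TTC9B, a protein with tetratricopeptide repeats that is also on this list, was above background on the s18790 arrays alone. It was at least 1.92-fold higher (adjusted p = 0.00594) and was called in every alternative, whereas MAPRE3 is not on the list. Like TACC2, TTC9B passed the detection filter only through the s18790 arrays, which fixed the direction of its call. The list's count of higher genes includes both. The remaining 4 called members, MAPT, NEFL, BASP1 and DPYSL3, were chosen after their values were seen. MAPT, the microtubule protein tau, was higher by 0.83, and its call was lost without s18789 replicates 3 or 4 or s18790 replicate 1 (adjusted p up to 0.0678). BASP1, a growth cone membrane protein, was higher by 0.52, and its call was lost without the same 3 arrays (up to 0.0723). NEFL, a neurofilament, was higher by 0.50, and its call was lost without s18789 replicate 3 or 4 (up to 0.0706).
DPYSL3, a growth cone collapse protein, was lower by 0.42, and its call was lost without control replicates 1, 2 or 3, any s18789 array or s18790 replicate 4 (up to 0.113).

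Genes of the synapse and of transmitter handling followed, beside 3% of all genes higher and 2.06% lower. Of 25 synaptic vesicle and exocytosis genes, 4 were higher and 0 lower (median 0.19). Of 22 synapse organisers, 3 were higher and 0 lower (median 0.10). Without s18790 replicate 2 the counts were 2 and 4 higher, and the organisers' median was 0.24; with median scaling that median was -0.09, and the counts were 1 and 2 higher.
CBLN2, a secreted organiser that bridges synaptic membranes, was at 9.74, 9.81, 9.62 and 9.80 with s18790, against 8.60, 8.67, 8.53 and 8.58 with s18789 and 8.36, 8.46, 8.11 and 8.61 with control. It was 2.22-fold higher (log2 1.15 ± 0.11, adjusted p = 0.000452), with values that varied little within groups.
SLC18A3, the vesicular acetylcholine transporter, was at 7.39, 7.87, 6.54 and 6.88 with s18790, against 6.05, 5.72, 5.92 and 5.89 with s18789 and 5.74, 6.02, 5.89 and 6.25 with control, and was 2.43-fold higher (log2 1.28 ± 0.23, adjusted p = 0.0114). CNTNAP1, an axonal protein next to nodes of Ranvier, was 0.76 ± 0.10 higher on the log2 scale (adjusted p = 0.00180). GNG3, a G protein subunit of neurons, was at 6.74, 7.13, 6.62 and 6.33 with s18790 and above background on no s18789 or control array. It was at least 2.21-fold higher (adjusted p = 0.000854). CBLN2, SLC18A3, CNTNAP1 and GNG3 were called in every alternative. GNG3 passed the detection filter only through the s18790 arrays, which fixed the direction of its call.
The remaining vesicle genes were SLC18A1, a vesicular monoamine transporter (0.51, adjusted p = 0.0273), SYNGR1, a vesicle membrane protein (0.67, 0.0485), and BSN, an active zone scaffold (0.45, 0.0456). The organiser NLGN2, an adhesion protein of inhibitory synapses, was higher by 0.52 (0.0232). All 4 calls were lost without s18789 replicates 2, 3 or 4 or s18790 replicate 1, and their adjusted p reached 0.100, 0.148, 0.138 and 0.0839. Those of SYNGR1 and BSN were also lost without s18790 replicate 2 (0.0534 and 0.0545), s18789 replicate 1 or control replicates 1, 2 or 3. That of BSN was lost without s18790 replicate 3 as well, and that of NLGN2 without s18789 replicate 1.
In the catecholamine and acetylcholine list of 11 genes, 2 were higher, both of them the vesicular transporters SLC18A3 and SLC18A1, and 1 was lower. The lower one was GCH1, which makes the cofactor that TH needs, at 7.83, 7.57, 7.75 and 7.49 with s18790, against 8.32, 8.37, 8.19 and 8.30 with s18789 and 8.36, 8.18, 8.10 and 8.19 with control. Its difference was -0.63 ± 0.11 (adjusted p = 0.00736), it was called in every alternative, and a second probe was called at -0.57 while the remaining one was not, at -0.27. CHRM3, also on this list, was not called by its brightest probe, at -0.99 (adjusted p = 0.0926), though its siRNA groups did not overlap. A dimmer CHRM3 probe was called lower, at -0.69 (0.0176). Of 19 ion channel genes, 3 were higher, the sodium channel subunit SCN3B at 0.63, the cation channel TRPM4 at 0.58 and the potassium channel KCNJ8 at 0.43, and 1 was lower, CLIC4, which is described with the falls. All 3 calls were lost without s18789 replicates 1, 3 or 4 or s18790 replicate 1, with adjusted p up to 0.104, 0.100 and 0.154. Those of TRPM4 and KCNJ8 were also lost without s18789 replicate 2 or control replicate 2, and that of KCNJ8 without control replicates 1 or 3 or s18790 replicates 2 (0.0588) or 4. With median scaling 0 of the 19 channel genes were higher and 1 lower, and SCN3B, TRPM4 and KCNJ8 had adjusted p of 0.153, 0.114 and 0.307.

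Among axon guidance genes, 6 of 22 were higher and 0 lower (median 0.21), beside 3% and 2.06% of all genes. Without s18790 replicate 2, 5 were higher. PLXNA1, a semaphorin receptor, was at 8.62, 8.72, 8.57 and 8.54 with s18790, against 7.83, 7.87, 7.81 and 7.76 with s18789 and 7.80, 7.90, 8.06 and 8.19 with control. It was 1.73-fold higher (log2 0.79 ± 0.10, adjusted p = 0.00187), with the groups clearly separated and the call present in every alternative. The repulsive guidance molecules RGMA and RGMB were higher by 0.68 and 0.64, and the netrin receptor UNC5A by 0.61. The related semaphorin receptors PLXNA2 (0.51) and PLXNA4 (0.60), chosen after their values were seen, were also higher.
Each of these 5 calls was lost without s18789 replicates 3 or 4 or s18790 replicate 1, with adjusted p up to 0.151 for RGMA, 0.130 for RGMB, 0.0723 for UNC5A, 0.0979 for PLXNA2 and 0.106 for PLXNA4. Without s18789 replicate 1 those of RGMA, RGMB, UNC5A and PLXNA4 were lost, and without s18789 replicate 2 those of RGMA, UNC5A, PLXNA2 and PLXNA4. Without control replicates 1 or 2 all but that of UNC5A were lost, without s18790 replicate 4 those of RGMA, RGMB and PLXNA2, and without control replicate 3 or s18790 replicate 2 those of RGMA (0.0650) and RGMB (0.0530 without s18790 replicate 2). With median scaling 1 of the 22 genes was higher.

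Of 9 measured receptors for neurotrophic factors, 1 was higher and 1 lower. GFRA2, the co-receptor for neurturin, was at 7.90, 8.30, 7.61 and 7.53 with s18790, against 6.53, 6.51, 6.42 and 6.38 with s18789 and 7.10, 7.04, 7.07 and 7.24 with control. It was 2.60-fold higher (log2 1.38 ± 0.15, adjusted p = 0.000822) in every alternative, and control lay between the siRNAs. ERBB2, a receptor kinase of the neuregulin system, was above background on no s18790 array and on every s18789 and control array, and was at least 1.05-fold lower (adjusted p = 0.0135). The sole alternative that ended this call was the fit to the 8 siRNA arrays only (0.0525).

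Regulators of sympathetic and neuroblastoma identity moved in both directions, with 3 of 21 adrenergic markers higher and 1 lower, the granin CHGB (median 0.17), and 0 of 17 mesenchymal markers higher and 2 lower (median -0.02, with 8 positive). Without s18790 replicate 2, 1 mesenchymal marker was higher and 2 lower. The summed intensity of fibroblast markers, which overlap the mesenchymal list, was 3682 to 4060.0 with s18790, against 4187 to 4556 with s18789 and 4312 to 4705 with control, and its part in these results was not tested.
HAND1, a transcription factor of sympathoadrenal cells, was at 11.82, 11.84, 11.53 and 11.43 with s18790, against 10.93, 10.71, 10.62 and 10.65 with s18789 and 10.63, 10.50, 10.65 and 10.65 with control. It was 1.90-fold higher (adjusted p = 0.00174).
MYCN, the MYC family factor amplified in many neuroblastomas, was at 8.22, 8.70, 8.06 and 8.26 with s18790, against 7.40, 7.68, 7.28 and 7.42 with s18789 and 7.05, 6.78, 6.93 and 7.08 with control, and was 1.82-fold higher (adjusted p = 0.00675). YAP1, a coactivator of the Hippo pathway and a mesenchymal marker, was at 5.58, 5.25, 5.99 and 5.32 with s18790, where 1 of 4 arrays was above background, against 6.65, 6.51, 6.43 and 6.54 with s18789 and 6.66, 6.65, 6.78 and 6.54 with control. It was 2.0-fold lower (adjusted p = 0.00336), and HAND1, MYCN and YAP1 were called in every alternative.
MYCN is also 1 of 3 higher genes among 13 of the MYC network, where 0 were lower, and 1 was higher with median scaling. MXD4 and MXD1, which oppose MYC at shared sites, were higher by 0.66 (adjusted p = 0.00736) and 0.41 (0.0479). The MXD4 call was lost with median scaling only (0.0714), and that of MXD1 with any s18789 array, control replicates 1, 2 or 3 or s18790 replicate 1 or 4 left out (up to 0.126). KLF13, a zinc finger factor of the adrenergic list, was higher by 0.60 (0.0185), and its call was lost without s18789 replicate 3 or 4 or s18790 replicate 1 (up to 0.0731). COL3A1, a fibrillar collagen, was lower by 0.58 (0.0440), and its call was lost with any single array left out other than control replicate 4 and s18790 replicate 2 (up to 0.123). Its difference was -0.69 (0.00885) without s18790 replicate 2. COL1A1, another fibrillar collagen on the same mesenchymal and fibroblast lists, had the opposite sign, at 6.38, 6.86, 6.42 and 6.84 with s18790, against 6.25, 6.10, 5.94 and 6.16 with s18789 and 5.80, 6.02, 5.97 and 6.14 with control. Its siRNA groups did not overlap, and its difference of 0.51 was not called (adjusted p = 0.0532).

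In the Notch list, which holds receptors, ligands, targets and the TLE corepressors, 4 of 19 measured genes were higher and 0 lower. Over all genes 3% were higher and 2.06% lower. The median of the Notch list, 0.36, was the highest of the lists. It was 0.21 without s18790 replicate 2, with 3 higher, and 0.23 with median scaling, with 2 higher. JAG2, a Notch ligand, was at 6.29, 6.22, 6.06 and 6.26 with s18790, against 5.64, 5.47, 5.14 and 5.26 with s18789. It was above background on 1 of 4 s18789 arrays and 1 of 4 control arrays, and was 1.78-fold higher (adjusted p = 0.00947). JAG2 passed the detection filter only with the s18790 arrays counted, which favoured a higher call. The list's count of higher genes includes it.
TLE2, a corepressor recruited by Notch targets of the HES family, was at 7.81, 8.14, 7.51 and 7.79 with s18790, against 6.62, 6.17, 6.14 and 6.48 with s18789 and 6.82, 7.13, 6.81 and 7.34 with control. It was 2.76-fold higher (log2 1.46 ± 0.17, adjusted p = 0.00104), and JAG2 and TLE2 were called in every alternative.
HEY1, a repressor that Notch induces, was higher by 0.65 ± 0.11 (adjusted p = 0.00947), lost its call with median scaling only (0.108), and had a second probe that was not called, at 0.21. NOTCH1, a receptor, was higher by 0.57 (0.0479), and its call was lost with any single array left out other than s18790 replicate 3, with an adjusted p of 0.0539 without s18790 replicate 2 and up to 0.140.

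Cancer-testis antigens are genes of the germ line that many tumours express, often from the X chromosome. All 14 measured members had a positive difference, with 3 called higher and 0 lower, beside 3% and 2.06% of all genes. The list's median was 0.28, 0.15 without s18790 replicate 2 and 0.10 with median scaling, with 3 higher each time.
MAGEC2 was at 7.28, 7.65, 6.80 and 6.92 with s18790, against 5.75, 5.59, 5.58 and 5.44 with s18789, where 2 of 4 arrays were above background, and 4.85, 4.78, 4.83 and 5.21 with control, where none was. It was 2.97-fold higher (log2 1.57 ± 0.17, adjusted p = 0.000854) in every alternative, but its second probe, with a mean of 5.58 with s18790 and 5.52 with s18789, was not called.
MAGEA10 was at 8.18, 8.32, 8.10 and 8.13 with s18790, against 7.54, 7.49, 7.30 and 7.20 with s18789 and 7.10, 7.11, 6.88 and 7.29 with control, and was 1.74-fold higher (adjusted p = 0.00324) in every alternative. MAGEC1 was above background on all s18790 arrays and on no others, and was at least 1.77-fold higher (adjusted p = 0.0152), with a second probe called at 0.89. MAGEC1 passed the detection filter only through the s18790 arrays, which fixed the direction of its call. MAGEC2 also passed it only with the s18790 arrays counted, which favoured a higher call. The list's count of higher genes includes both. The MAGEC1 call was lost without s18789 replicate 3 or s18790 replicate 1 (up to 0.0597).
GTSF1, a germ cell factor of small RNA silencing, and AGO1, an Argonaute, were the 2 of 18 small RNA processing genes that were higher, at 0.90 (adjusted p = 0.0143) and 0.52 (0.0314), with 0 lower. GTSF1 was above background on 1 of 4 s18789 arrays and on no control array. It passed the detection filter only with the s18790 arrays counted, which favoured a higher call, and the count of 2 includes it. The GTSF1 call was lost without s18789 replicate 2 or 3 (up to 0.0554). That of AGO1 was lost without control replicates 2 or 3, s18789 replicates 2, 3 or 4 or s18790 replicate 1 (up to 0.108).

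Histone genes of the replication-dependent clusters, which normally give transcripts without a poly(A) tail, had mostly positive differences, 17 of 18. Of these 18 genes, 2 were higher and 0 lower, beside 3% and 2.06% of all genes (list median 0.24). The median was 0.11 without s18790 replicate 2, an array on which their median stood 0.52 over the rest of the s18790 group.
H2BC12 was at 10.86, 11.26, 11.07 and 11.03 with s18790, against 10.16, 9.91, 9.74 and 9.97 with s18789 and 10.13, 9.83, 9.92 and 10.06 with control, and was 2.16-fold higher (adjusted p = 0.000854). H2BC5 was at 9.41, 9.38, 9.52 and 9.40 with s18790, against 8.82, 8.75, 8.52 and 8.50 with s18789 and 8.58, 8.61, 8.43 and 8.52 with control, and was 1.72-fold higher (adjusted p = 0.00209). Both were called in every alternative, with second probes called at 1.02 and 0.74, and for H2BC5 s18790 replicate 2 was the lowest s18790 array. Histone H2B genes are near-identical in their coding parts, so which copy a probe reads is uncertain. H2AC18 (0.59) and H2BC21 (0.59) were not called, with adjusted p of 0.0581 and 0.0798.

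Called members of the replication, mitosis and centromere lists were all lower, where 2.06% of all genes were lower. In the G1/S and DNA replication list of 42 genes, 0 were higher and 3 lower (median 0.00). Of 48 genes of G2/M and mitosis 0 were higher and 1 lower, a share near that of all genes (median -0.25, with 42 negative). Of 27 of centromere and kinetochore assembly 0 were higher and 2 lower (median -0.30). With s18790 replicate 2 left out, the G2/M median was -0.16 with 2 lower, and the centromere median -0.20 with 3 lower.
RFC5, a subunit of the clamp loader of DNA replication, was at 8.71, 8.75, 8.57 and 8.61 with s18790, against 9.49, 9.39, 9.33 and 9.34 with s18789 and 9.15, 9.18, 9.13 and 9.52 with control. It was 1.65-fold lower (log2 -0.72 ± 0.11, adjusted p = 0.00338) in every alternative.
The replication initiation factor MCM10 (-0.59, adjusted p = 0.0489), the thymidylate synthase TYMS (-0.46, 0.0487) and the kinase subunit CKS1B (-0.42, 0.0452) were lower, and their calls were each lost without control replicates 1, 2 or 3, any s18789 array or s18790 replicate 1, with adjusted p up to 0.140, 0.132 and 0.123. Those of MCM10 and TYMS were also lost without control replicate 4 or s18790 replicate 4, and those of TYMS and CKS1B without s18790 replicate 3. HMMR, a spindle and hyaluronan-binding protein, had the largest difference of the G2/M list at -1.56, with an adjusted p of 0.114.
The centromere gene ITGB3BP was at 6.57, 5.90, 7.11 and 7.11 with s18790, against 7.39, 7.63, 7.95 and 7.83 with s18789, and was 2.03-fold lower (adjusted p = 0.0456). NSL1, a kinetochore subunit, was lower by 0.56 (0.0222). Both calls were lost with any s18789 array or s18790 replicate 1 left out, and that of ITGB3BP without control replicates 1, 2 or 3, with adjusted p up to 0.140 and 0.0751. The ITGB3BP difference was -0.77 (0.0433) without s18790 replicate 2.
Of 25 Fanconi and homologous recombination genes, 0 were called by limma and 4 had an unadjusted p under 0.05 (median -0.26, and -0.07 without s18790 replicate 2, which lay a median of 0.76 below its group on this list). Of 20 targets of p53, 1 was higher and 1 lower. CDKN1A, the cell cycle inhibitor p21, was higher by 0.60 (0.0246), and PMAIP1, the cell death protein NOXA, was 1.96-fold lower (0.0458). Both calls were lost without s18789 replicates 2, 3 or 4 or s18790 replicate 1, and that of PMAIP1 also without s18789 replicate 1 or control replicates 1, 2 or 3, with adjusted p up to 0.0869 and 0.141. The PMAIP1 difference was -0.68 (0.0192) without s18790 replicate 2.

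Secreted peptides and granins were lower where called, with 3 of 15 lower and 0 higher, beside 2.06% and 3% of all genes (median -0.04). VIP, the vasoactive intestinal peptide, was at 8.16, 7.0, 8.63 and 8.66 with s18790, against 9.38, 9.35, 9.46 and 9.39 with s18789 and 9.32, 9.34, 9.37 and 8.58 with control. It was 2.43-fold lower (log2 -1.28 ± 0.31, adjusted p = 0.0380), a second probe was called at -1.14, and s18790 replicate 2 was by far the lowest array. The difference was -0.91 without it (0.0143), and the call was lost without control replicates 1, 2 or 3, any s18789 array or s18790 replicate 1 (up to 0.112).
NPY, the neuropeptide Y precursor, was at 12.85, 12.92, 12.79 and 12.76 with s18790, against 13.26, 13.21, 13.26 and 13.32 with s18789 and 12.76, 12.68, 12.72 and 12.84 with control. It was 1.35-fold lower (adjusted p = 0.0172), and here the s18790 and control values lay close together with s18789 above both. CHGB, a granin of dense-core granules, was lower by 0.52 ± 0.10 (0.0142). The NPY call was lost without s18789 replicate 3 or 4 and that of CHGB without s18789 replicate 2 or 4, with adjusted p up to 0.0643 and 0.0537.

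Further genes with large rises were called in every alternative. CEBPA, a transcription factor of differentiation, was at 6.87, 7.11, 6.36 and 6.49 with s18790. It was above background on no s18789 array and on 2 of 4 control arrays, and was at least 2.21-fold higher (adjusted p = 0.00315). CEBPA passed the detection filter only with the s18790 arrays counted, which favoured a higher call.
LRRC26, an auxiliary subunit of potassium channels, was at 7.20, 7.82, 7.04 and 7.03 with s18790, against 6.18, 5.94, 5.65 and 6.26 with s18789 and 7.09, 6.97, 6.83 and 7.20 with control. It was 2.4-fold higher (0.00336), with a second probe called at 1.05, and s18790 and control overlapped while s18789 lay below both. The zinc finger factor ZNF467 was at 7.55, 8.06, 7.17 and 7.34 with s18790, against 6.61, 6.26, 6.06 and 6.24 with s18789 and 7.14, 7.21, 7.07 and 7.25 with control, which also overlapped s18790, and was 2.35-fold higher (0.00309). ABTB1, with ankyrin repeats and BTB domains, was 2.34-fold higher (0.00236).

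Among further genes that fell, CLIC4, a chloride intracellular channel protein, was at 8.88, 8.27, 9.09 and 8.84 with s18790, against 9.89, 10.11, 10.16 and 10.08 with s18789 and 10.05, 10.19, 10.14 and 9.64 with control. It was 2.44-fold lower (log2 -1.29 ± 0.17, adjusted p = 0.00236), while 2 dimmer CLIC4 probes were not called, at -0.58 and -0.21. TMEM64, a membrane protein, was at 6.86, 6.07, 6.71 and 6.73 with s18790, against 7.85, 7.76, 7.64 and 7.81 with s18789 and 7.61, 7.97, 7.67 and 7.68 with control, and was 2.25-fold lower (0.00243), with a second probe called at -1.12.
TOR1AIP2, a cofactor of the torsin ATPases of the endoplasmic reticulum, was at 6.21, 5.59, 6.20 and 5.96 with s18790, against 6.97, 7.07, 7.08 and 6.96 with s18789 and 6.92, 7.07, 7.13 and 6.72 with control, and was 2.05-fold lower (0.00254), with a second probe called at -0.80. CLIC4, TMEM64 and TOR1AIP2 were called in every alternative, and each was lowest on s18790 replicate 2, without which the differences were -1.12, -0.99 and -0.90.
KLHL2, a substrate adaptor of cullin ubiquitin ligases, was 2.08-fold lower (0.0125), and its call was lost without s18789 replicate 4 (0.0518). SLC35B4, a transporter of nucleotide sugars, was 1.93-fold lower (0.0135), and the fit to the 8 siRNA arrays only was the sole alternative that ended its call (0.0572).
Of 45 cilium and centriole genes, 0 were higher and 1 lower, a share near the 2.06% of all genes that were lower (median -0.20, and -0.13 without s18790 replicate 2). That gene was BBS10, which helps assemble a protein complex of the cilium, and was above background on no s18790 array and at least 1.46-fold lower (0.0212). IFTAP, a protein bound to ciliary transport particles, was at 8.05, 7.62, 8.29 and 8.34 with s18790, against 8.70, 9.01, 9.29 and 9.23 with s18789, and was 1.97-fold lower (0.0135). The IFTAP call was lost without s18789 replicate 3 or 4 and that of BBS10 without s18789 replicates 2, 3 or 4 or s18790 replicate 1, with adjusted p up to 0.0549 and 0.0736.
PIP4P2, a phosphoinositide phosphatase of endosomes, was 2.19-fold lower (0.0246), CPED1, a protein with a cadherin-like domain, 2.32-fold lower (0.0374), and CHUK, a kinase of the NF-κB pathway, 1.93-fold lower (0.0399). Each call was lost without s18789 replicates 2, 3 or 4 or s18790 replicate 1, with adjusted p up to 0.0766, 0.122 and 0.117. Those of PIP4P2 and CHUK were also lost without s18789 replicate 1, and those of CPED1 and CHUK without control replicates 1, 2 or 3 or s18790 replicate 4.

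Mitochondrial ribosome genes were lower where called, with 3 of 77 lower and 0 higher, beside 2.06% and 3% of all genes (median -0.14, 57 negative). Without s18790 replicate 2, on which the list lay a median of 0.32 above its group, 11 were lower and 0 higher (median -0.18). MRPS33, a protein of the small subunit, was at 8.97, 9.24, 9.11 and 8.97 with s18790, against 10.03, 9.61, 9.61 and 10.01 with s18789 and 10.08, 9.89, 9.99 and 9.86 with control, and was 1.67-fold lower (adjusted p = 0.00801) in every alternative. Its second probe was not called, at -0.41 (0.0613). MRPS31 and MRPS10, also of the small subunit, were lower by 0.64 (0.0147) and 0.57 (0.0261). Their calls were lost without s18789 replicate 3 or 4 or s18790 replicate 1, and that of MRPS10 without s18789 replicate 2, with adjusted p up to 0.0577 and 0.0874. Of 50 respiratory chain genes 1 was lower, and of 66 cytosolic ribosomal proteins 1, shares near the 2.06% of all genes. They were NDUFB5 of complex I, at -0.41 (0.0322), and RPL22, at -0.69 (0.0451). Both calls were lost without control replicates 1, 2 or 3, any s18789 array or s18790 replicate 1 or 4, with adjusted p up to 0.0914 and 0.121. The lists of mitochondrial ribosome and respiratory chain genes had medians of -0.29 and -0.21 with median scaling.

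Autophagy and lysosome genes also had mostly positive differences, 26 of 34, with 3 higher and 0 lower, beside 3% and 2.06% of all genes. The list's median was 0.26, 0.19 without s18790 replicate 2 and 0.08 with median scaling, where 0 were higher and 2 lower. ULK1, the kinase that starts autophagy, was at 10.19, 10.21, 10.04 and 10.13 with s18790, against 9.79, 9.68, 9.62 and 9.51 with s18789 and 9.72, 9.80, 9.78 and 9.79 with control, and was 1.41-fold higher (adjusted p = 0.0125), with a second probe called at 0.51. Its call was lost without s18789 replicate 4 (0.0529), with median scaling (0.163) and with only the 8 siRNA arrays fitted (0.0665). WIPI2, of the forming autophagosome, and CTSA, a lysosomal protease, were higher by 0.62 (0.0275) and 0.51 (0.0395). Their calls were lost without s18789 replicates 2, 3 or 4 or s18790 replicate 1, and that of CTSA also without s18789 replicate 1, s18790 replicate 4 or control replicates 1, 2 or 3, with adjusted p up to 0.0871 and 0.132.

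Genes close to SETD1A in function showed 0 calls among 18 measured members of the SET1 and MLL complexes (median 0.04, and -0.13 with median scaling). Among them, the difference was 0.39 for CXXC1, which tethers the SET1 complex to CpG islands (adjusted p = 0.0794), and -0.38 for DPY30, a shared core subunit (0.0569). At an unadjusted p under 0.05 there were 4 of these 18, against 21.6% of all probes. Of 11 genes with rare variants in schizophrenia, 1 was higher and 0 lower (median -0.19, and 0.03 without s18790 replicate 2). That gene was TRIO, a guanine nucleotide exchange factor in growing axons, at 7.97, 8.09, 8.12 and 7.97 with s18790, against 7.54, 7.70, 7.40 and 7.70 with s18789, or 0.45 higher (0.0440). Its call was lost with any single array left out other than control replicate 4 and s18790 replicate 2 (up to 0.141). Of 36 other histone methylation and acetylation regulators, 1 was higher, the deacetylase HDAC1, at 0.36 (0.0438). Its call was lost without control replicates 1, 2 or 3, any s18789 array or s18790 replicates 1 or 4 (up to 0.123).

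**Figure D5:**
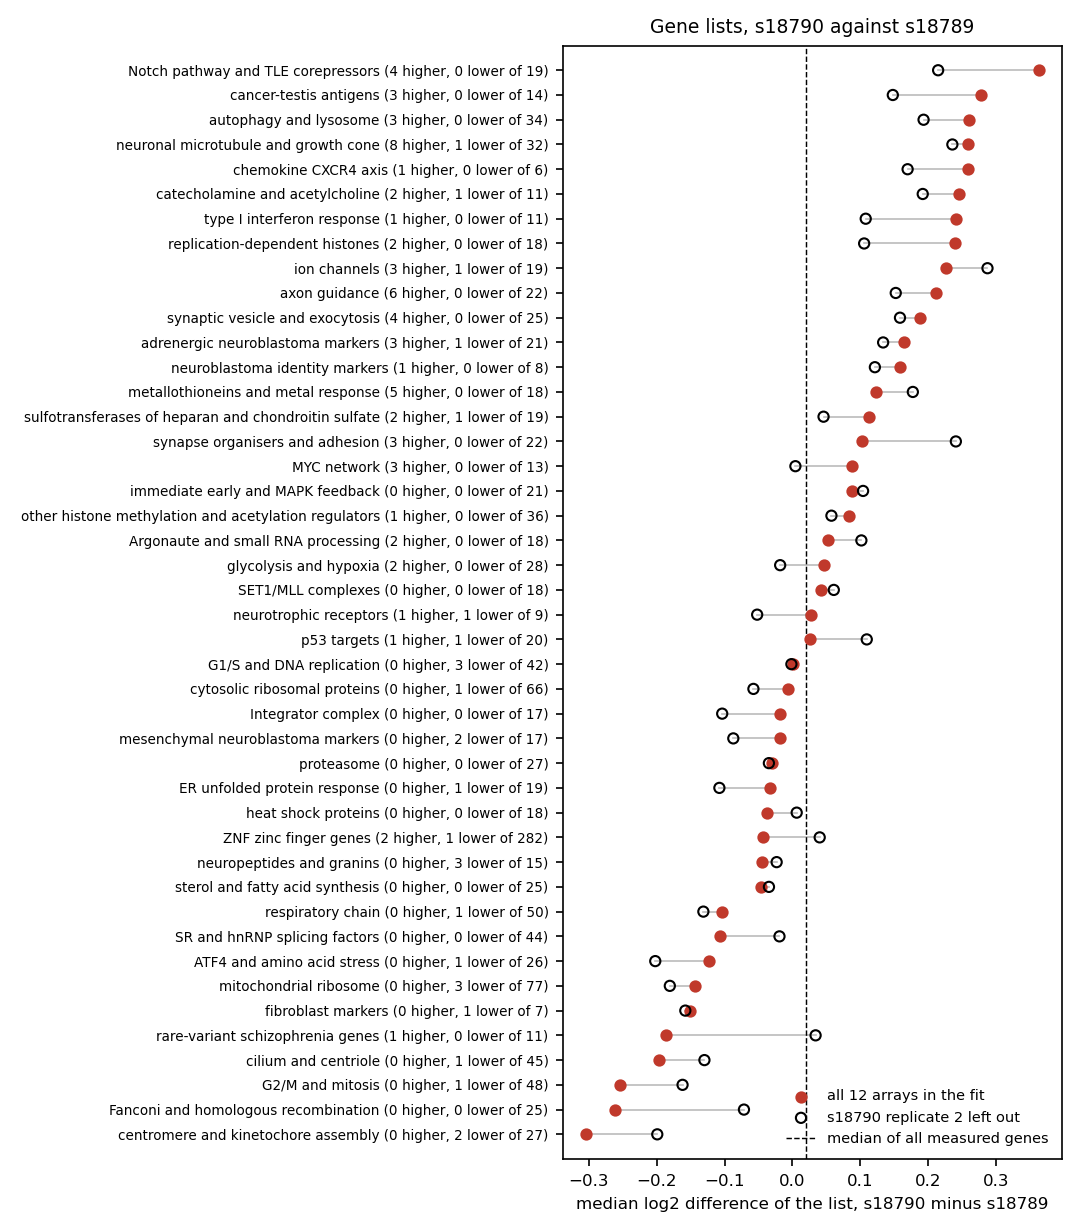
Median log2 difference of s18790 minus s18789 for each gene list, over all arrays (filled) and without s18790 replicate 2 (open), with the counts of members called in each direction beside the name. The dashed line is the median of all measured genes at 0.02; the Notch list is highest at 0.36 and the centromere list lowest at -0.30.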

How the data were processed

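Total RNA of 12 SH-SY5Y samples was hybridised to Illumina bead arrays of 1 colour, 1 array per sample, with 4 arrays each for s18790, s18789 and the control siRNA. The authors deposited mean bead intensity per probe on a linear scale, from GenomeStudio per the submitters' processing notes, without normalization between arrays as the values show. Each intensity comes with a detection p-value, per the file headers. The authors also deposited log2 values for these arrays, used only as an alternative because the sources used here do not name their transform.

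Normalization used limma 3.58.1 in R 4.3.3 (neqc through the detection p-values, offset 16, quantile, log2). Probes with detection p under 0.01 on at least 4 of the 12 arrays were kept. A gene above background in 1 group alone is thus kept because it is high there, and the filter fixes its direction. Where a gene reaches 4 arrays only with the s18790 arrays counted, the filter favours a higher call. Of 47321 probes, 30113 had 1 gene symbol in the platform annotation, 8 had several and 17200 were unnamed here; 30074 symbols were checked against a current gene table and 0 changed. All 12 arrays entered 1 linear model with a mean per group (9 residual degrees of freedom), and s18790 minus s18789 was tested with moderated statistics and Benjamini-Hochberg adjustment over all kept probes. Errors are standard errors of this model unless marked SD. The number of arrays limits the precision, and the chip of each array was not given, so no such batch was analysed.

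Where every array of a group was at background, a gene's fold is a lower bound. It sets the mean of the brighter group against the dim group's mean, in which each array's value is raised to the lowest level of any probe above background on that array where the gene lies under it. Genes named are SETD1A, up to 15 genes higher and 15 lower by size among called genes whose values did not overlap, and per list up to 4 members by size and every called member where 5 or fewer were called. The comparison, this rule and the 48 gene lists were chosen with earlier results of these data known. Lists are described by counts and medians, with no test. Alternatives were no background correction, median scaling, other detection filters, the authors' log2 values, only the 8 arrays compared, the replicate number as a block, array weights, each array left out in turn, and s18790 replicate 2 and control replicate 4 left out together. One alternative, only the 7 arrays that remain without s18790 replicate 2, was chosen after seeing the data. The procedure was tested on simulated data, with 50 altered probes for each size of difference. It called 16% of them at a log2 difference of 0.5, 76% at 1, 94% at 1.5 and 100% at 2, with 5 false calls. The simulated noise was independent between probes and equal on all arrays, with no outlying array like s18790 replicate 2. These rates and the number of false calls may therefore not hold for the real arrays. Most simulated differences of 0.5 were thus missed, so a missing call at that size does not show equal levels.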

Additional observations from a re-analysis of the deposited data

Results flagged for a closer look

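In each group of 4 arrays, the gap of the highest or lowest array to its nearest neighbour was divided by the group's range, and a ratio above Dixon's 95% critical value for 4 samples was taken as an array that stands apart. Chance alone gives about 1 in 20 groups, and 4 of the 200 groups looked at passed, 3 of them through s18790 replicate 2. For MCM10, a factor that starts DNA replication, the ratio was 0.988 among s18790 arrays, with 8.72 on s18790 replicate 2 against 9.45 to 9.46 on the other 3. HDAC1, a histone deacetylase, had 0.879, with 11.03 on s18790 replicate 2 against 10.84 to 10.86. KCNJ8, a potassium channel subunit, had 0.836, with 9.35 on s18790 replicate 2 against 9.04 to 9.09. CHST15, the chondroitin sulfate sulfotransferase with the largest difference between the siRNAs, had 0.840, with 8.41 on s18790 replicate 3 against 8.81 to 8.89 on the other s18790 arrays, and all 4 lay above every s18789 array.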

How the results depend on the processing

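The count of called probes, 667, was 767 with no background correction, 693 with median scaling, 603 with no detection filter, 740 with probes detected on all 12 arrays, 721 with probes detected on at least 4 of the 8 siRNA arrays and 810 with the authors' log2 values. It was 200 with only the 8 arrays compared, 1578 with array weights, 1633 with s18790 replicate 2 and control replicate 4 left out together, and 952 with only the 7 arrays that remain without s18790 replicate 2. With 1 array left out it ranged from 206 to 1084. With the replicate number as a block it was 292. Deviations of s18790 and s18789 arrays of the same number correlated at -0.23, 0.21, 0.46 and 0.41, and 3 of 12 arrays correlated best with their own number in another group. The labels do not say whether the number pairs samples. These values cannot settle it, with 1 array per group for each number. Between quantile normalization and median scaling, 387 of the 667 calls were shared. The SETD1A difference ranged from -0.33 to -0.13 with 1 array left out, and it passed the threshold in 1 alternative, with both outlying arrays left out (-0.33, adjusted p = 0.0407). The sign of no gene followed turned in the alternatives run. Probes at background on every array of a group give only bounds, and the cause of the differences between settings was not tested.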

Other observations

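In the type I interferon response, 1 of 11 measured genes was higher with s18790 and 0 lower, beside 3% and 2.06% of all genes (median 0.24, and 0.11 without s18790 replicate 2); it was IRF9, a subunit of the interferon-activated transcription factor, at 0.50 ± 0.12 SE (limma adjusted p = 0.0342). In the unfolded protein response of the endoplasmic reticulum, 1 of 19 was lower, the secreted factor MANF, at -0.47 (0.0201), and in the ATF4 and amino acid stress list 1 of 26 was lower, the secreted glycoprotein STC2, at -0.65 (0.0445). In glycolysis and hypoxia, 2 of 28 were higher, the hypoxia-responsive NDRG1 at 0.79 (0.0219) and the glycolytic enzyme PGAM1 at 0.46 (0.0176), whose second probe was at 0.15 and not called; with median scaling 0 of the 28 were higher and 1 lower. Of 6 genes of the CXCR4 axis, 1 was higher, the arrestin ARRB1, at 0.66 (0.0293), with 2 other probes not called at 0.26 and 0.08. The 6 calls were all lost without s18789 replicate 4, all but that of MANF without s18789 replicate 3, and all but that of PGAM1 without s18790 replicate 1. Without s18789 replicate 1 those of IRF9, MANF and STC2 were lost, and without s18789 replicate 2 those of IRF9, MANF, NDRG1 and ARRB1. Control replicates 1 and 3 and s18790 replicate 4 also decided IRF9 and STC2, and control replicate 2 IRF9. The highest adjusted p was 0.0960 for IRF9, 0.0691 for MANF, 0.137 for STC2, 0.0793 for NDRG1, 0.0649 for PGAM1 and 0.0960 for ARRB1.

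In the limma fit 0 members were called among 18 heat shock genes, 25 of sterol and fatty acid synthesis, 27 of the proteasome, 17 of the Integrator complex, 21 immediate early genes and 44 splicing factors, and 4, 5, 3, 2, 5 and 1 of them had an unadjusted p under 0.05. Of 282 ZNF zinc finger genes, 2 were higher and 1 lower (median -0.04, and 0.04 without s18790 replicate 2). ZNF177, above background on no s18790 array, was at least 1.22-fold lower (0.0180), and its call was lost without s18789 replicates 1, 2 or 4 (up to 0.0596). The antisense transcript ZNF606-AS1 was 0.61 higher (0.0376), and its call was lost with any s18789 array, control replicate 1 or 2 or s18790 replicate 1 or 4 left out (up to 0.111); the other gene that was higher is ZNF467, described above. Of 2 immune markers measured and the 1 epithelial marker, 0 were called.

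The difference between the siRNAs varied with the GC content of the promoter, for the 81.9% of measured genes with a promoter sequence in RefSeq. Over 4 bins of similar size, from the lowest GC to the highest, the median log2 difference was -0.05, -0.02, 0.03 and 0.10, and the share of genes higher with s18790 was 1.94%, 2.33%, 2.71% and 4.46%, while the share lower was 2.91%, 2.12%, 1.98% and 1.38%. Without s18790 replicate 2 the medians were -0.03, -0.01, 0.01 and 0.06. By chromosome the lowest median was -0.23, on chromosome 13, and the highest 0.17, on chromosome 19; without s18790 replicate 2 they were -0.09 and 0.09. With median scaling the medians of chromosomes 13 and 19 were -0.39 and 0.03. On chromosome 22, 14 of 232 genes were higher and 1 lower, beside 3% and 2.06% of all genes. It is named because its share of higher genes was the largest of the chromosomes. The part of GC content and of array quality in these values was not tested.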
